A study of Mus musculus with 6 samples.

Results

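The genes described here encode the machinery that brings nuclear-encoded proteins into mitochondria. They were taken as the protein-coding rows of the deposited count table whose symbol is a numbered Timm or Tomm gene, Timmdc1, Grpel1 or Grpel2, Pmpca or Pmpcb, Immp1l or Immp2l, Chchd4, Gfer or Pam16. The rule uses symbols alone and found 35 genes among the 54532 in the table. RNA sequencing was done on L929 cells, a wild-type (WT) mouse fibroblast line widely used to study death by tumour necrosis factor. The 3 control libraries are compared with 3 libraries from cells held for 12 hours with both 10 ng/ml TNF-α, an inflammatory cytokine, and 1 µg/ml actinomycin D, a DNA-binding blocker of transcription; they are called treated below. Control samples carry the same protocol text, so the group was read from titles and treatment labels. Neither agent was given alone, so their effects cannot be told apart. Nothing in the labels ties a library to a culture of its own; the p-values therefore reflect library-to-library spread only, possibly of technical origin. In bulk RNA, fewer surviving cells and less RNA per cell cannot be told apart either.

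Most mitochondrial proteins are made in the cytosol and enter through the TOM complex of the outer membrane, a pore with receptors that recognise targeting signals. From there, proteins with a cleavable presequence pass the TIM23 translocase and are pulled in by a matrix motor built on the chaperone mortalin, after which peptidases remove the presequence. Small TIM chaperones of the intermembrane space carry membrane proteins to the TIM22 translocase and to the outer membrane, and a disulfide relay traps small cysteine-rich proteins in that space.

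Promoter stretches of 5 import genes are printed because these genes moved in opposite directions while several of them share the same short letters near the start. Each stretch is the 120 bases before the RefSeq start in GRCm38.p6, read 5′ to 3′ on the gene's strand. RefSeq starts can lie a few bases inside the deposited gene model, or upstream of it as for Timm8b and Tomm20. Capitals mark CCGGAAG (an ETS-type motif), ATGGCGG (YY1) or the palindromic NRF1 motif, on either strand. The first pair comes from genes that fell, at chr16:57121594-57121713 (+) for the receptor Tomm70a and chr14:32201892-32202011 (−) for the channel subunit Timm23. The other three come from genes that rose on the main scale used below, at chr15:79670748-79670867 (+) for the receptor Tomm22, chr9:50603781-50603900 (+) for the chaperone Timm8b and chr8:126945922-126946041 (−) for the receptor Tomm20.
Tomm70a: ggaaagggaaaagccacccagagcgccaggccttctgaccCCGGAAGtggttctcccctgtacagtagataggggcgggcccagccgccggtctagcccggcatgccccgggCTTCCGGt
Timm23: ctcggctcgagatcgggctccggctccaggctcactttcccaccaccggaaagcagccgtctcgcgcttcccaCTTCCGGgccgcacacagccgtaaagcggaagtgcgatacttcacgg
Tomm22: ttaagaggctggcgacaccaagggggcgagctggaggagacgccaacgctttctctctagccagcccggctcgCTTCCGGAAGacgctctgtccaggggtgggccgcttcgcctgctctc
Timm8b: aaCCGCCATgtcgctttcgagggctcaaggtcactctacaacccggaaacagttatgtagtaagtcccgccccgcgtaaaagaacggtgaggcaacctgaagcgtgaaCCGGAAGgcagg
Tomm20: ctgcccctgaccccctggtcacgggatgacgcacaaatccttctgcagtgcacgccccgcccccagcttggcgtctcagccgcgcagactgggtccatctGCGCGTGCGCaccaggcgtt

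RefSeq promoters of 300 bases, from 250 before to 50 after the start, were matched by symbol for 31 of the 35 genes. CCGGAAG was in 13 of these 31 promoters (41.9%), against 9.93% of 27025 genes with a promoter and 21.3% of 9039 protein-coding genes that were both tested and matched. It was in 4 of 12 promoters of genes that rose, 4 of 8 of genes that fell and 4 of 8 of genes that did not pass the test, so its presence was spread over all 3 outcomes. ATGGCGG was in 6 of 31 (19.4%, against 9.95% of the tested genes), the NRF1 motif in 4 (12.9% against 12.0%), the E-box CACGTG in 5 (16.1% against 12.0%) and TATAAA in 2 (6.45% against 8.25%). TGACGTCA and the NF-kappaB consensus were in none of the 31, against 3.76% and 0.221% of the tested genes. These motifs were chosen after counts had been seen and a match is a string of letters, not a measured site. CCGGAAG and ATGGCGG do not overlap in the stretches shown, and in Tomm22 matches to CCGGAAG on both strands overlap each other.

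Library totals ran from 16056207 to 18036322 counts and 13290 genes passed the count filter. Composition differed between the groups: cytosolic ribosomal protein genes took 7.98% ± 0.630 of counts in control and 20.6% ± 2.37 in treated libraries (SD, n = 3). The TMM factors, which equalise the bulk of genes, were 1.44 ± 0.0930 and 0.699 ± 0.0857, and the main values below are TMM-scaled counts relative to the effective library total (CPM). Scaling by library size alone moves the median log2 change of all tested genes by −1.04, holding ribosomal protein genes equal moves it by −2.38, median-ratio factors move it by 0.11 and upper-quartile factors by 0.16, so directions of rising genes belong to the TMM scale unless another is named. Treated replicate 3 lay nearest the controls on the first principal component (77.7, against 124 and 109) and treated replicate 1 stood apart on the second (53.6, against −23.9 and −39.8). Fibroblast markers were present (summed 6329 to 8189 CPM in control and 20385 to 23803 CPM in treated libraries over 12 genes), with Pdgfrb (75.6 to 39.6 CPM) and Pdgfra (18.6 to 6.08 CPM) called lower, Lum and Dcn at 0 counts and Thy1 at 6. Summed markers in control and treated libraries were 2.16 to 2.76 and 23.5 to 31.0 CPM for 5 macrophage genes, mostly Cd68, with Itgam at 0 and Adgre1 and Ptprc at 0 to 1 count in any control library. For 4 epithelial genes, mostly Krt14 with Epcam and Krt5 at 0, they were 2.69 to 3.95 and 9.15 to 12.7 CPM. For 4 lymphocyte genes they were 0.197 to 0.248 and 0 to 0.762 CPM with Cd8a at 0, and for 4 endothelial genes 0.286 to 0.538 and 0 to 0.457 CPM with Kdr at 0. Their part in the results was not tested.

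The import machinery did not move as a block: its subunits spread from an 8.51-fold fall to a 7.33-fold rise. Of the 35 genes, 32 could be tested. With edgeR's quasi-likelihood test and Benjamini-Hochberg adjustment over all 13290 genes at 0.05, 14 import genes rose on the TMM scale (34.6% of all tested genes did), 9 fell (40.2% of all tested genes did) and 9 did not pass. A call in either direction was made for 74.8% of all tested genes. With library size alone the counts were 7 higher (17.1% of all tested genes) and 18 lower (59.6% of all tested genes). With ribosomal protein genes held equal they were 1 higher (1.89% of all tested genes) and 27 lower (82.3% of all tested genes). The median log2 change of the 32 genes was 0.50, against −0.18 over all tested genes, and the gap between these medians, 0.68, was 0.63 to 0.69 under the 4 other scalings, which move all genes nearly alike. The gap was 0.38 with a correction for gene length and 0.42 with DESeq2. Groups did not overlap for 24 of the 32 genes (77.9% of all tested genes did not overlap). Falls of at least 4-fold were seen in 4 import genes (17.9% of all tested genes) and rises of at least 4-fold in 4 (12.5% of all tested genes). By these shares the import genes were close to the background in how many moved. The protein-coding genes tested, 11470 in number, had a median of −0.34, with 3755 higher and 5039 lower.

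**Figure D1:**
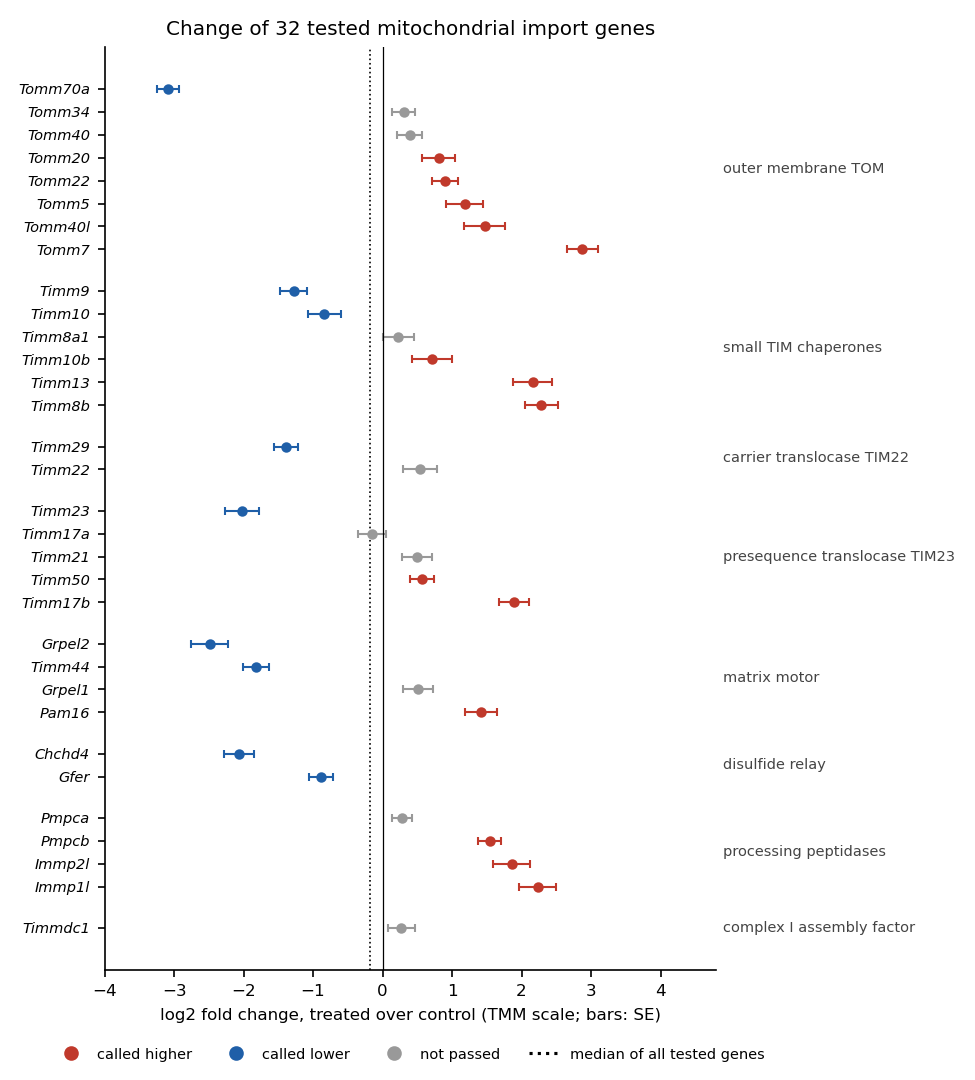
Log2 fold change of each tested import gene, treated over control on the TMM scale (x axis), with bars for the standard error, genes grouped by role and coloured by the call; the dotted line is the median of all tested genes. Tomm70a at −3.09 and Tomm7 at 2.87 mark the ends; most rises, but not that of Tomm7, turn to negative values when ribosomal protein genes are held equal.

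All 14 rises were highest in treated replicate 1, and 13 of them were lowest in treated replicate 3. Over all genes that rose, 50.2% of 4604 were highest in treated replicate 1 and 61.0% lowest in treated replicate 3. Among the 9 import genes that fell, 4 were highest in treated replicate 1, 2 in replicate 2 and 3 in replicate 3. Over all 5337 genes that fell, 22.0% were highest in treated replicate 1, 19.2% in replicate 2 and 58.7% in replicate 3. The part of RNA quality in the order of these libraries was not tested. Leaving out treated replicate 1 gave 12 rises, leaving out treated replicate 3 gave 17, and the count of falls was 9 in both cases. Without treated replicate 1, 4520 of 13803 tested genes rose and 5551 fell. Without treated replicate 3, 4564 of 13737 rose and 5737 fell.

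**Figure D2:**
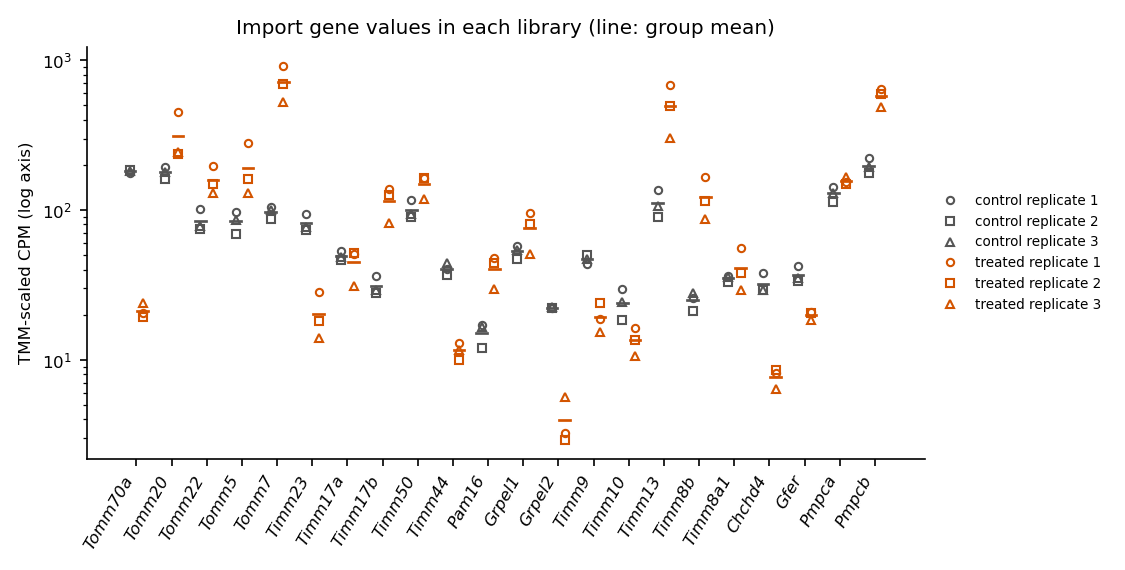
TMM-scaled CPM (log axis) of 22 import genes in each of the 6 libraries, with symbols for the replicate, colours for the group and a line at each group mean. Tomm70a has tight values in both groups (177 to 184 against 19.2 to 23.9 CPM), while the treated values of Tomm5 and Tomm20 are highest in replicate 1 (279.7 and 454 CPM).

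Of the 8 tested Tomm genes, which include the cytosolic Tomm34, 5 rose on the TMM scale (34.6% of all tested genes did). The 1 that fell was a receptor of the outer membrane (40.2% of all tested genes fell). Tomm70a, the receptor that docks chaperone-bound carrier precursors (chr16:57121703-57156705, +, GRCm38), stood at 177, 184 and 183 CPM in control and 20.6, 19.2 and 23.9 CPM in treated libraries. Each treated value was far below each control value, and the controls hardly varied. Its mean went from 181 ± 3.76 to 21.2 ± 2.45 CPM (SD, n = 3), an 8.51-fold fall with a log2 change of −3.09 ± 0.16 (SE) and an edgeR adjusted p of 2.85e-07. Only 5.79% of all tested genes had a change as low or lower. The log2 change ran from −3.23 to −3.10 when each library was left out in turn.

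The other receptors went the opposite way on the TMM scale. Tomm20, which binds presequences, had 195, 162 and 179 CPM in control and 454, 237 and 246 CPM in treated libraries. The groups did not overlap, but treated replicate 1 stood far above the other treated libraries. Its log2 change was 0.81 ± 0.24 (edgeR adjusted p = 0.0111), and 0.35 without treated replicate 1. Tomm22, the central receptor that organises the complex, had 101, 74.7 and 78.2 CPM in control and 197, 148 and 129 CPM in treated libraries. It rose by a log2 change of 0.90 ± 0.19 (edgeR adjusted p = 0.00136), with no overlap. By library size alone both receptors had negative changes, −0.26 for Tomm20 and −0.15 for Tomm22, neither past the threshold. The ratio of Tomm20 to Tomm22 in counts per kb was 0.714 in control and 0.645 in treated libraries, with overlapping groups. This ratio carries no length correction of the change. With a correction for gene length Tomm20 had 1.06 (edgeR adjusted p = 0.00272) and Tomm22 −0.10, not past the threshold.

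Of the small subunits that stabilise the pore, Tomm7 had the largest rise of any import gene. Tomm7 (chr5:23838944-23844161, −) had 104, 86.7 and 101 CPM in control and 919, 694 and 525 CPM in treated libraries. All 3 treated libraries lay far above the highest control, and they differed among themselves more than the controls did. The means were 97.2 ± 9.33 and 713 ± 197 CPM, a log2 change of 2.87 ± 0.22 (edgeR adjusted p = 1.1e-06). Tomm7 was the 1 import gene called higher under all 21 settings tried, at 0.43 with ribosomal protein genes held equal. Tomm5 had 96.2, 69.5 and 86.0 CPM in control and 279.7, 162 and 129 CPM in treated libraries, a log2 change of 1.18 ± 0.27 (edgeR adjusted p = 0.00217). A correction for gene length turned the Tomm5 value to −0.37 and that of Tomm22 to −0.10, neither past the threshold, and holding ribosomal protein genes equal turned both.

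For the pore itself, Tomm40 did not pass the test, at 151, 109 and 120.0 CPM in control and 176, 189.7 and 133 CPM in treated libraries (log2 change 0.39 ± 0.18, edgeR adjusted p = 0.0716). Its groups overlapped, and it passed without treated replicate 3 and without control replicate 1. Tomm40l, a less abundant paralog of the pore, had 12.2, 8.70 and 10.5 CPM in control and 43.7, 22.8 and 20.8 CPM in treated libraries. Without overlap, it rose by a log2 change of 1.47 ± 0.29 (edgeR adjusted p = 0.000887). The ratio of Tomm40 to Tomm40l in counts per kb went from 13.8 to 6.81. By library size alone Tomm40l had 0.41 and Tomm5 0.11, neither past the threshold. Tomm34, a cytosolic cochaperone of precursors, did not pass (0.30 ± 0.17, edgeR adjusted p = 0.119). Tomm6, the remaining small subunit, and Tomm20l, a relative of the presequence receptor, were too low to test, with 15 and 4 counts over all 6 libraries.

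The small TIM chaperones did not move together on the TMM scale. These proteins work as rings made of paired subunits, Timm9 with Timm10 for carrier precursors and a Timm8 protein with Timm13 for another set of precursors. Timm9 (chr12:71123173-71136684, −) fell, from 43.4, 50.1 and 47.3 CPM to 18.7, 23.9 and 15.4 CPM, a log2 change of −1.28 ± 0.20 (edgeR adjusted p = 0.000133). Timm10 (chr2:84826997-84830213, +) fell from 29.4, 18.5 and 24.3 CPM to 16.3, 13.5 and 10.6 CPM, a log2 change of −0.84 ± 0.24 (edgeR adjusted p = 0.00766). Neither gene's groups overlapped, though control replicate 2 of Timm10 lay close to treated replicate 1.

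Of the other ring, Timm13 and Timm8b rose on the TMM scale and Timm8a1 did not pass. Timm13 (chr10:80899450-80900969, −) had 136, 89.5 and 107 CPM in control and 686, 495 and 304 CPM in treated libraries, a log2 change of 2.16 ± 0.28 (edgeR adjusted p = 5.58e-05). Timm8b (chr9:50603910-50605320, +) had 26.0, 21.3 and 28.1 CPM in control and 166, 115 and 86.5 CPM in treated libraries, a log2 change of 2.28 ± 0.24 (edgeR adjusted p = 8.25e-06). In both genes the lowest treated library was well clear of the highest control. Timm8a1, the other tested Timm8 gene, had 36.5, 32.8 and 35.6 CPM in control and 55.8, 37.7 and 29.4 CPM in treated libraries, overlapping and not past the threshold (0.23 ± 0.22, edgeR adjusted p = 0.374). Holding ribosomal protein genes equal gave −0.29 for Timm13 and −0.16 for Timm8b, neither past the threshold. With the length correction Timm13 kept a positive change of 0.99 and Timm8b had 0.38, no longer past the threshold.

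Timm10b, a relative of Timm10 that sits at the TIM22 complex, was the least abundant tested import gene in control cells by counts per kb. It had 2.89, 2.69 and 2.41 CPM in control and 4.94, 4.41 and 3.74 CPM in treated libraries, a log2 change of 0.71 ± 0.29 (edgeR adjusted p = 0.0422). This call was kept in 6 of 18 settings that tested it, and in 1 of the 6 that left out a library, with log2 changes of 0.53 to 0.77 there. Timm10b overlaps Arfip2 on the opposite strand by 361 bases, and that gene had 6173 counts against 352 for Timm10b. Timm8a2 had 0 counts in every library.

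At the inner membrane, the carrier translocase TIM22 had 2 tested members. Timm29 (chr9:21592722-21595970, +), a subunit found in animals that helps join TIM22 to the outer membrane, had 51.4, 44.1 and 46.8 CPM in control and 17.5, 16.7 and 19.9 CPM in treated libraries. Each treated library was under each control, and the log2 change was −1.39 ± 0.17 (edgeR adjusted p = 2.38e-05). Timm22, the channel subunit, had 24.5, 18.2 and 19.1 CPM in control and 40.7, 27.2 and 21.7 CPM in treated libraries, which overlap. It did not pass (0.53 ± 0.24, edgeR adjusted p = 0.0674), but did without treated replicate 3. Agk, a lipid kinase that is also a TIM22 subunit, fell from 18.7 ± 1.40 to 9.29 ± 1.20 CPM (log2 change −1.01 ± 0.20, edgeR adjusted p = 0.000925), and had −0.10 with the length correction, no longer past the threshold.

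Within the presequence translocase TIM23, the tested genes did not move together on the TMM scale. Timm23 (chr14:32180162-32201898, −), the namesake channel subunit, had 93.5, 74.0 and 76.8 CPM in control and 28.1, 18.3 and 14.0 CPM in treated libraries. No treated library reached even the lowest control, and the log2 change was −2.02 ± 0.25 (edgeR adjusted p = 2.69e-05). Timm50, the receptor that hands presequences to the channel, had 117, 89.3 and 94.1 CPM in control and 163, 163 and 119 CPM in treated libraries. It was called higher on the TMM scale, barely without overlap (0.57 ± 0.18, edgeR adjusted p = 0.0126), and lost the call without control replicate 2, control replicate 3, treated replicate 1 or treated replicate 2 (adjusted p up to 0.0760). By library size alone Timm50 was −0.49 and called lower, and with the length correction it was 0.06, not past the threshold. Per kb, the ratio of Timm23 to Timm50 averaged 1.22 in the control libraries and was 0.259, 0.169 and 0.176 in the treated libraries.

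Timm17a and Timm17b encode alternative forms of the same channel subunit. Timm17a had 53.4, 46.7 and 48.5 CPM in control and 51.2, 51.4 and 31.3 CPM in treated libraries, overlapping (log2 change −0.15 ± 0.20, edgeR adjusted p = 0.516). Timm17b (chrX:7899357-7908351, +) had 36.3, 27.7 and 29.0 CPM in control and 137, 126 and 81.4 CPM in treated libraries, a log2 change of 1.89 ± 0.21 (edgeR adjusted p = 1.4e-05). With the length correction Timm17a, the longer gene (7893 against 2557 bases), was called higher at 0.53 (edgeR adjusted p = 0.0399) and Timm17b had 1.32. The ratio of Timm17a to Timm17b per kb, which needs no scaling between libraries but carries no length correction of the change, was 0.476, 0.545 and 0.541 in control and 0.121, 0.132 and 0.124 in treated libraries, a log2 difference of −2.05. Timm21, which links TIM23 to TOM and to the respiratory chain, did not pass (0.50 ± 0.21, edgeR adjusted p = 0.0534).

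The matrix motor had 2 genes that fell (40.2% of all tested genes did), 1 that rose (34.6% of all tested genes did) and 1 that did not pass. Timm44 (chr8:4259731-4275913, −), which anchors mortalin at the channel, fell from 40.4, 36.9 and 44.6 CPM to 13.0, 9.98 and 11.7 CPM (log2 change −1.82 ± 0.19, edgeR adjusted p = 6.96e-06). Pam16, the regulator that pairs with the motor's J protein, went from 17.0, 12.0 and 16.4 CPM to 47.5, 44.2 and 29.7 CPM, a rise of 1.42 ± 0.23 on the log2 TMM scale (edgeR adjusted p = 0.000181). Both genes' groups were separate. By library size alone Pam16 had 0.36, not past the threshold. Pam16 overlaps Glis2 on the opposite strand by 8461 bases, and strand use in the counting is unknown here.

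Grpel1 and Grpel2 are the paralogous exchange factors that recharge mortalin. Grpel2 (chr18:61712440-61726331, −) had 22.3, 22.0 and 22.5 CPM in control and 3.26, 2.91 and 5.64 CPM in treated libraries, a 5.62-fold fall (log2 change −2.49 ± 0.27, edgeR adjusted p = 9.99e-06). The 3 controls were nearly equal, and the highest treated library was still far below them. These treated values rest on 37, 33 and 74 counts. Grpel1 had 57.6, 47.2 and 53.9 CPM in control and 95.7, 80.1 and 50.5 CPM in treated libraries and did not pass (0.51 ± 0.22, edgeR adjusted p = 0.0547), with treated replicate 3 inside the control range. Without that library Grpel1 passed at 0.70. The ratio of Grpel1 to Grpel2 per kb was 2.95, 2.45 and 2.73 in control and 33.5, 31.4 and 10.2 in treated libraries.

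Both genes of the disulfide relay fell (40.2% of all tested genes did). Chchd4 (chr6:91462172-91473546, −), the oxidoreductase that folds incoming proteins and traps them, had 38.0, 29.2 and 29.3 CPM in control and 8.11, 8.56 and 6.40 CPM in treated libraries. The treated values were tight and far below the controls, for a log2 change of −2.07 ± 0.21 (edgeR adjusted p = 6.77e-06). Gfer (chr17:24693191-24696156, −), the sulfhydryl oxidase that reoxidises Chchd4, had 42.0, 33.5 and 35.4 CPM in control and 20.9, 20.6 and 18.5 CPM in treated libraries, a log2 change of −0.89 ± 0.18 (edgeR adjusted p = 0.00081). Gfer's groups did not overlap. The ratio of Gfer to Chchd4 per kb went from 3.37 to 7.65, without a length correction of the change. With a correction for gene length the changes were nearly equal, −1.81 for Gfer (1775 bases) and −1.75 for Chchd4 (5192 bases), both past the threshold.

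Of the 4 processing peptidase genes, 3 rose on the TMM scale (34.6% of all tested genes did) and none fell (40.2% of all tested genes did). Holding ribosomal protein genes equal turned all 3. Pmpcb, the catalytic subunit of the matrix processing peptidase, had 222, 176 and 194 CPM in control and 643, 596 and 484 CPM in treated libraries, a log2 change of 1.54 ± 0.17 (edgeR adjusted p = 1.17e-05). Its partner Pmpca, which binds the presequence, had 142, 114 and 130.4 CPM in control and 153, 148 and 167 CPM in treated libraries and did not pass (0.28 ± 0.15, edgeR adjusted p = 0.108). The treated values of Pmpca lay just above the controls, while those of Pmpcb were far above theirs. Per kb the ratio of Pmpca to Pmpcb was 0.771, 0.774 and 0.806 in control and 0.286, 0.298 and 0.414 in treated libraries.

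The inner membrane peptidase genes rose together on the TMM scale. Immp1l had 8.85, 5.84 and 7.70 CPM in control and 46.5, 33.7 and 25.2 CPM in treated libraries (log2 change 2.23 ± 0.26, edgeR adjusted p = 1.8e-05). Immp2l had 4.38, 4.08 and 3.95 CPM in control and 20.1, 13.9 and 11.1 CPM in treated libraries (1.86 ± 0.27, edgeR adjusted p = 8.08e-05). Neither overlapped with its controls. Timmdc1, a Tim17-family protein that works in complex I assembly, did not pass, at 19.1, 14.9 and 17.3 CPM in control and 23.7, 18.4 and 19.7 CPM in treated libraries (0.27 ± 0.20, edgeR adjusted p = 0.233).

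Ratios between partners or paralogs within a library do not depend on how libraries are scaled, so 13 such pairs were compared per kb. They carry no length correction of the change, so a pair of unlike lengths can shift with the length trend described below. Groups did not overlap in 10 of the 13. The exact two-sided permutation test cannot go below p = 0.1 with 3 libraries against 3, and Benjamini-Hochberg values over the 13 pairs ran from 0.13 to 0.5, so no pair could pass 0.05. The ratio of Timm8a1 to Timm13 went from 0.309 to 0.0814, a log2 difference of −1.92. That of Timm10b to Timm10 went from 0.0256 to 0.0743, a log2 difference of 1.54, and rests on 49 to 70 counts of Timm10b a library. Immp1l over Immp2l went from 3.41 to 4.48 (log2 difference 0.39). Pam16 over Dnajc19, the J protein it pairs with, went from 0.803 to 0.456 (log2 difference −0.82). Overlapping groups were seen for Timm9 over Timm10 (0.377 and 0.273, exact permutation p = 0.2), Timm8b over Timm13 (0.605 and 0.667, p = 0.5 by the same exact test) and Tomm20 over Tomm22. Within the small TIM proteins, the ratios Timm9/Timm10 and Timm8b/Timm13 thus overlapped between the groups, while Timm8a1/Timm13 and Timm10b/Timm10 did not.

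**Figure D3:**
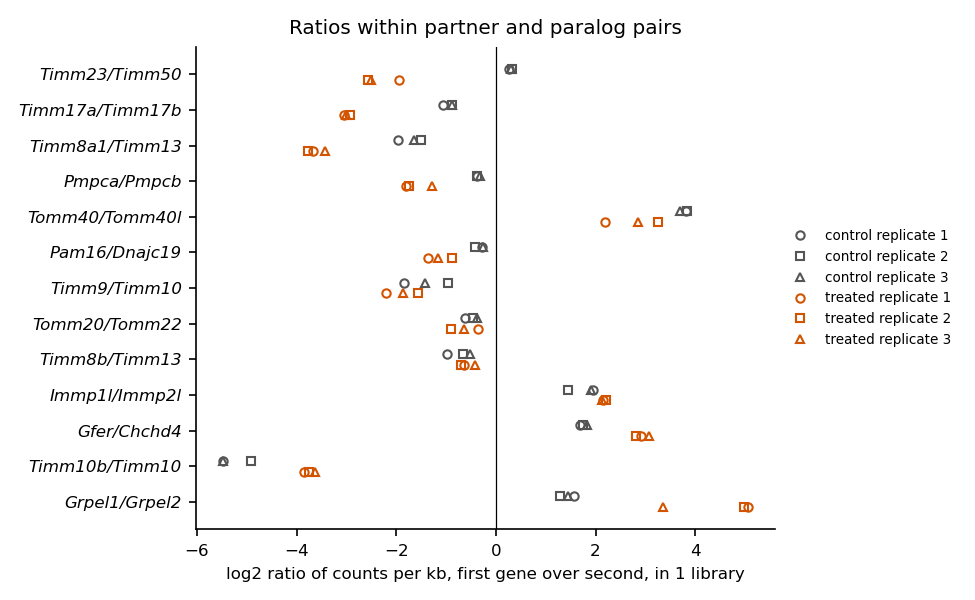
Log2 ratio of counts per kb between the first and the second gene of each pair (x axis) in each library, with symbols for the replicate and colours for the group. Groups are separate for 10 of 13 pairs, and the 3 treated libraries of Grpel1/Grpel2 spread most (33.5, 31.4 and 10.2 as plain ratios).

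Levels between genes were compared as TMM-scaled CPM per kb of deposited gene length. In control cells Tomm5 was highest among the 32 genes (96.7), before Tomm7 (86.4), Timm13 (80.9), Tomm22 (51.3), Timm8b (48.5) and Timm23 (45.6). In treated cells Tomm7 was first (634), before Timm13 (361), Timm8b (236) and Tomm5 (219). Timm23 stood at 11.3, rank 21, and Tomm70a went from 18.5, rank 16, to 2.17, rank 29. Timm17b moved from rank 20 (12.1) to rank 9 (45.0). The lowest in treated cells was Grpel2, at 0.978. Small subunits and chaperones thus held ranks 1 to 3 in control cells and ranks 1 to 4 in treated cells. Pmpcb had rank 7 in control and rank 5 in treated cells by its deposited length of 5141 bases. Its GENCODE transcript has 1615 bases, so its rank depends on the length used. The same holds for other genes whose deposited length is well above that of the transcript, such as Tomm40 (4513 and 1646 bases).

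Import genes together held 0.283% ± 0.0108 of all counts in control and 0.256% ± 0.0369 in treated libraries (SD, n = 3), with overlapping groups. Over protein-coding counts without ribosomal protein genes the shares were 0.317% ± 0.0145 and 0.352% ± 0.0610, so the sign of the difference depends on the denominator. The make-up inside this share shifted. Tomm7 was 4.78 to 5.16% of import counts in control and 18.3 to 19.8% in treated libraries, Timm13 went from 5.03 to 6.24% to 10.6 to 14.7%, and Pmpcb from 9.90 to 10.1% to 13.8 to 16.9%.

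Changes in these libraries followed gene length across the whole table, and the import genes were set against that trend. The median log2 change of all tested genes fell from 1.38 in the shortest of 5 equal length bins, through 0.43, −0.25 and −0.67, to −1.19 in the longest. Of the 32 import genes, 13 were in the shortest bin, where 7 rose and 3 fell (60.7% and 14.6% of all tested genes there). In the longest bin were 2, of which 1 fell (65.2% of all tested genes there). The Spearman correlation between log2 change and length was −0.41 over the 32 import genes (Pearson's r −0.47) and −0.42 over all 13290 tested genes, given as a description, since all genes share the same 6 libraries and are not independent.

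Several import genes lay far from the genes of their own deposited length. Timm23, at 1786 bases, was 3.40 (log2) below the median of its length bin, Gfer 2.27 below, Grpel2 2.24 below and Timm10 2.22 below. Pmpcb was 2.21 and Tomm40l 2.14 above theirs, both in the same bin. The distance of Pmpcb depends on the length used, since its deposited length is 5141 bases and its GENCODE transcript has 1615. A length of 1615 bases lies in the shortest bin, whose median was 1.38 against a change of 1.54 for Pmpcb. The length correction used deposited lengths as well. Deposited and GENCODE lengths also differ for Tomm40 (4513 and 1646 bases), Timm9 (4282 and 990), Timm44 (3664 and 1790) and Pam16 (2435 and 596). Their distances and corrected changes thus depend on the length used. At 1646 bases Tomm40 would lie in the shortest bin, whose median of 1.38 is above its change of 0.39. Tomm70a, with 9777 bases, was 1.90 below the median of the longest bin, so its change was lower than those of genes of similar length too. With the length correction 12 import genes were called higher (29.5% of all tested genes) and 12 lower (39% of all tested genes). Pmpca, Tomm40 and Timm17a gained a call as higher there, and Timm21, Timm8a1 and Timmdc1 as lower. Timm23 stood at −2.94, Tomm70a at −2.29 and Tomm7 at 1.54, each past the threshold.

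**Figure D4:**
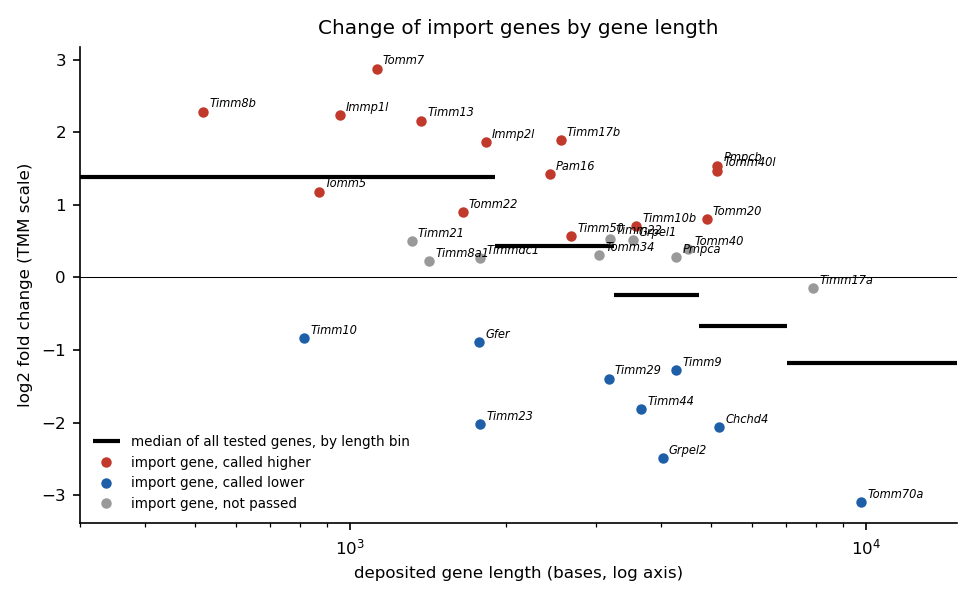
Log2 fold change on the TMM scale (y axis) against deposited gene length in bases (log axis) for the 32 tested import genes, coloured by the call, with black bars for the median of all tested genes in each of 5 length bins. Timm23 lies 3.40 under its bar and Pmpcb 2.21 over its bar. The GENCODE transcript of Pmpcb has 1615 bases, so its place depends on the length used.

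Transcript features were read from the GENCODE M21 annotation of GRCm38 for all 32 genes. The coding part was short for small subunits (156 bases in Tomm5, 168 in Tomm7 and 252 in Timm8b) and 1836 bases in Tomm70a. The 3′ untranslated region (UTR) had 3969 bases in Tomm70a, 3339 in Grpel2 and 2843 in Chchd4, which fell, but also 4348 in Tomm20 and 3510 in Tomm40l, which rose on the TMM scale. The Spearman correlation with the change was −0.35 for coding length and −0.27 for 3′ UTR length over the import genes, against −0.40 and −0.34 over 11448 protein-coding genes. For ATTTA pentamers in the 3′ UTR this correlation was −0.05 over the import genes and −0.30 over the protein-coding genes, and for GC content 0.03 and 0.18. These too are descriptions over genes that share the libraries.

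Genes that work next to the import machinery were taken from lists, 64 of whose members were tested; 43 rose on the TMM scale and 13 fell, where 34.6% and 40.2% of all tested genes did. With library size alone 24 were higher and 24 lower (17.1% and 59.6% of all tested genes), and with ribosomal protein genes held equal 3 higher and 50 lower (1.89% and 82.3% of all tested genes). All 7 matrix chaperone and motor genes rose on the TMM scale. Hspa9, which is mortalin, went from 790.1 ± 12.1 to 1357 ± 47.3 CPM (log2 change 0.78 ± 0.15, edgeR adjusted p = 0.000798), and Hspd1, the matrix chaperonin, had a change of 0.82. By library size alone Hspa9 and Hspd1 turned to −0.26 and −0.22. Dnajc19, the motor's J protein, rose by 2.26 ± 0.23 (edgeR adjusted p = 6.64e-06), Trap1, a matrix chaperone of the Hsp90 family, by 1.59 and Hspe1, the cochaperonin, by 1.42. With the length correction Hspd1 had 0.30 and Hspe1 0.31, neither past the threshold. The motor partners Dnajc19 and Pam16 thus rose on the TMM scale while Timm44 and Grpel2 fell, and holding ribosomal protein genes equal made both rises negative.

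Among 12 presequence and quality-control proteases, 7 rose on the TMM scale (34.6% of all tested genes did) and 4 fell (40.2% of all tested genes did). Clpx, the unfoldase of the matrix protease ClpXP, fell from 28.8 ± 2.94 to 1.51 ± 0.936 CPM (log2 change −4.22 ± 0.35, edgeR adjusted p = 1.92e-06), a larger fall than any import gene had. Spg7 and Afg3l2, which form one inner membrane protease together, went opposite ways on the TMM scale, at 2.21 and −2.40. Lonp1, the Lon protease of the matrix, rose by 1.09, and by library size alone had 0.04, not past the threshold.

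Of 8 genes for sorting, assembly and insertion at the outer membrane, 5 rose on the TMM scale, led by Mtch1, a relative of the insertase Mtch2 (1.93), and the barrel assembly protein Samm50 (1.89 ± 0.23, edgeR adjusted p = 2.11e-05). Dnajc11 (−2.21) and Atad1, the extractor of mislocalised proteins (−1.01), fell. Of 8 genes for inner membrane insertion, Romo1 and the prohibitins, 4 rose on the TMM scale and 4 fell. Romo1 (2.83) and the prohibitin Phb (1.71) led the rises, and the insertase Oxa1l (−1.39) and the fusion GTPase Opa1 (−1.12) the falls. With the length correction Opa1 had −0.44, no longer past the threshold, and Romo1 1.15. All 7 tested genes of MICOS, the complex that shapes cristae junctions, rose on the TMM scale, most of all Minos1 (2.78) and 2410015M20Rik (2.38). Of all tested genes, 34.6% rose and 40.2% fell on this scale.

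The twin CX9C list was meant for substrates of the disulfide relay, but it also holds Aifm1 and Pet100, which are not twin CX9C proteins. Of its 18 genes, 11 rose on the TMM scale (34.6% of all tested genes did). Aifm1 was 1 of the 2 that fell (40.2% of all tested genes did). Cox6b1 (2.96) and Pet100 (2.79) had the largest rises. Coa4, an assembly factor, had −1.83, and Aifm1, which anchors Chchd4 in the intermembrane space, −0.64 ± 0.15 (edgeR adjusted p = 0.00288). Of 4 tested surveillance genes 2 rose on the TMM scale and 1 fell: Pink1, the kinase that accumulates when import fails, went from 15.01 ± 3.88 to 103 ± 14.3 CPM (2.78), Atf5, a stress-response factor, had 1.67 and Atf4, another such factor, −1.25. Holding ribosomal protein genes equal made the changes of Spg7, Lonp1, Mtch1, Samm50, Phb, 2410015M20Rik and Atf5 negative and left those of Romo1, Minos1, Cox6b1, Pet100 and Pink1 positive, those of Pet100 and Pink1 no longer past the threshold.

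Beside the import genes, 77 tested mitochondrial ribosomal protein genes had a median change of 0.68, with 46 higher and 18 lower on the TMM scale. The 39 tested SLC25 carriers, which are themselves brought in by TIM22, had a median of −0.22, with 14 higher and 16 lower. Of all tested genes, 34.6% were higher and 40.2% lower on this scale. Import genes, at a median of 0.50, lay between these families. The differences between families were not tested.

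**Figure D5:**
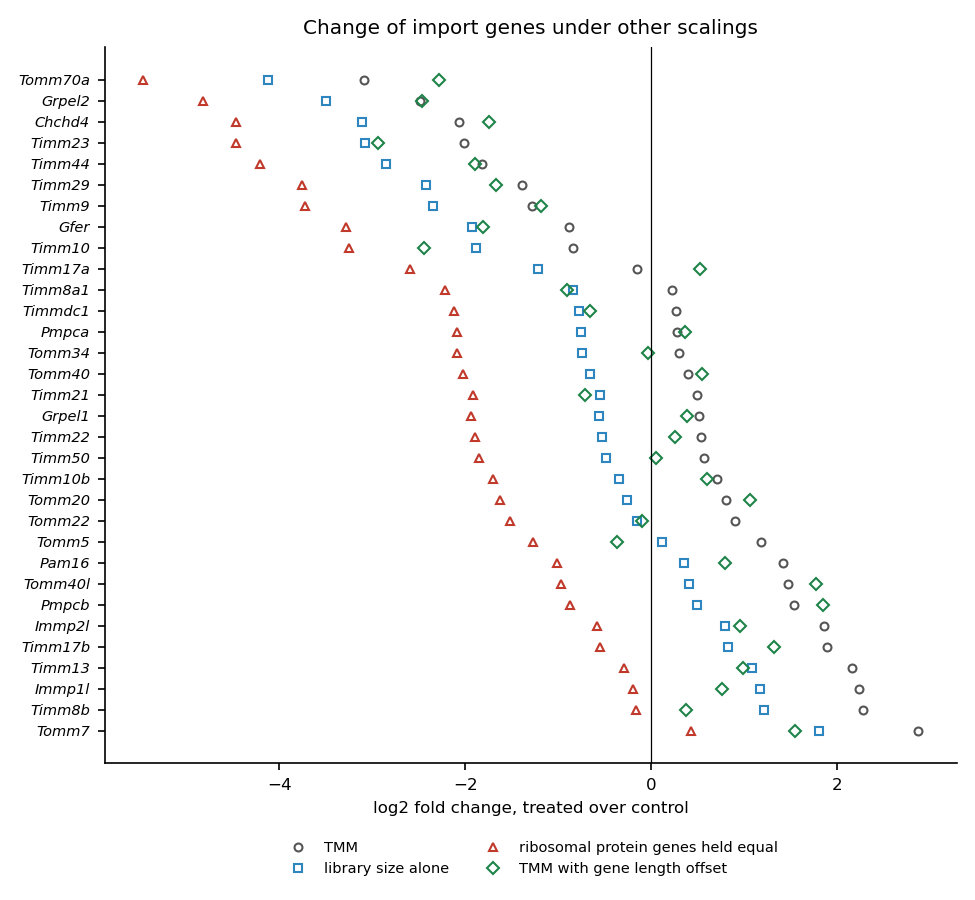
Log2 fold change (x axis) of each tested import gene under TMM scaling, library size alone, ribosomal protein genes held equal, and TMM with a gene length offset. The 9 genes from Tomm70a to Timm10 are lower and past the threshold under all 4, and Tomm7 is positive under all 4. The other 13 genes that rose on the TMM scale become negative when ribosomal protein genes are held equal.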

How the data were processed

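RNA sequencing of 3 control and 3 treated L929 libraries was analysed from tables the authors deposited. Per the submitters' processing notes, the builds were GRCm38 and mm10 and the tools included DESeq2 1.24.0, HISAT2 2.1.0 and RSEM 1.3.1; their roles are not stated there. The deposited counts are whole numbers per gene, with coordinates, biotypes and gene length in bases, a unit of type other per the file headers. The authors' FPKM equals count over length times 1 constant per library, which relative to scaling by the library total was 0.635 to 0.719 (control) and 1.22 to 1.64 (treated). Strand use and the treatment of shared reads are not given in the sources used. Control columns carry the genotype name and were matched by it and by number.

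Genes passing edgeR's filterByExpr were scaled by TMM and tested with glmQLFTest (edgeR 4.0.16, R 4.3.3, robust fit), treated against control, with Benjamini-Hochberg adjustment at 0.05 over 13290 genes. A standard error is the log2 change over the root of F. Ratios within pairs used counts per kb and an exact two-sided permutation test. No pair of libraries of a group agreed within counting noise. Import genes and lists were chosen with earlier results of these data known. Every import gene is named. Of each list of other pathway genes, the text names the 2 largest rises and 2 largest falls that passed the test and averaged at least 1 CPM, and Hspa9, Dnajc19, Samm50, Hspd1, Hspe1, Aifm1 and Agk in every case. Of 68 listed symbols 65 were in the table. Alternatives were other scalings (library size, median-ratio, upper-quartile, 82 ribosomal protein genes held equal), no filter or a mean of at least 5 CPM, DESeq2 1.42.0, limma-voom (limma 3.58.1), limma on the deposited FPKM as log2(FPKM + 1), filtered at a mean of 1 or unfiltered, or as log2(FPKM + 0.1), a replicate block, a gene length offset (lowess span 0.3), a test of protein-coding genes alone, and omission of each library. The fits were tested on simulated data. The edgeR fit called 46 of 94 genes changed by a log2 size of 1 and 84 of 96 changed by 2. It called 11 of 12826 unchanged genes. Few genes were changed in the simulation, so it cannot test the scaling in data where most genes were called. Python 3.11.15 with matplotlib 3.10.9 drew the figures.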

Additional observations from a re-analysis of the deposited data

How the results depend on the processing

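Scaling and gene length decided which way many import genes went. Of all tested genes, 17.1% were higher and 59.6% lower with library size alone, and 1.89% and 82.3% with ribosomal protein genes held equal. With library size alone 7 import genes were called higher and 18 lower, and of the other pathway genes 24 higher and 24 lower; the log2 change turned to −0.15 for Tomm22, −0.22 for Hspd1, −0.26 for Tomm20, −0.26 for Hspa9, −0.34 for Timm10b, −0.49 for Timm50, −0.53 for Timm22, −0.56 for Timm21, −0.56 for Grpel1, −0.66 for Tomm40, −0.74 for Tomm34, −0.75 for Pmpca, −0.77 for Timmdc1 and −0.84 for Timm8a1. With ribosomal protein genes held equal 1 import gene was called higher and 27 lower, and of the other pathway genes 3 higher and 50 lower; the change turned to −0.067 for 2410015M20Rik, −0.16 for Timm8b, −0.18 for Dnajc19, −0.19 for Spg7, −0.19 for Immp1l, −0.29 for Timm13, −0.48 for Mtch1, −0.54 for Samm50, −0.55 for Timm17b, −0.59 for Immp2l, −0.71 for Atf5, −0.72 for Phb, −0.81 for Trap1, −0.87 for Pmpcb, −0.97 for Tomm40l, −1.01 for Pam16, −1.01 for Hspe1, −1.27 for Tomm5, −1.31 for Lonp1, −1.52 for Tomm22, −1.56 for Hspd1, −1.61 for Hspa9, −1.63 for Tomm20, −1.71 for Timm10b, −1.85 for Timm50, −1.90 for Timm22, −1.92 for Timm21, −1.94 for Grpel1, −2.02 for Tomm40, −2.09 for Pmpca, −2.09 for Tomm34, −2.12 for Timmdc1 and −2.22 for Timm8a1. Both alternatives move all genes by nearly the same amount, as their construction shows. The gene length offset left the gap between the medians of import genes and all genes at 0.38, and at 0.39 together with the replicate block; it turned the change to 0.53 for Timm17a, −0.039 for Tomm34, −0.10 for Tomm22, −0.37 for Tomm5, −0.65 for Timmdc1, −0.71 for Timm21 and −0.91 for Timm8a1, and with the replicate block to 0.49 for Timm17a, −0.043 for Tomm34, −0.11 for Tomm22, −0.44 for Tomm5, −0.66 for Timmdc1, −0.72 for Timm21 and −0.96 for Timm8a1. DESeq2 gave a gap of 0.42, and the cause was not tested. Upper-quartile factors turned Timm17a to 0.0099, and leaving out treated replicate 3 turned it to 0.013, and leaving out treated replicate 1 turned Timm8a1 to −0.14; neither gene passed the threshold there or in the main test. The difference in the summed share of counts of import genes, treated minus control, was −0.0268 percentage points of all counts and 0.0343 of protein-coding counts without ribosomal protein genes.

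Replicate numbers in the labels did not pair the libraries: deviations of same-numbered control and treated libraries correlated at 0.22, −0.14 and 0.03, and not every library correlated best with its own number. The replicate block gave 16 import genes higher and 9 lower, against 4450 and 5411 of all 13290 tested genes. Leaving out each library in turn gave 12 to 17 import genes higher and 9 lower, and gaps of 0.51 to 0.89 between the medians. Over all 13622 to 13803 genes tested there it gave 4126 to 4564 higher and 4927 to 5737 lower. For the other pathway genes it gave 40 to 44 higher and 12 to 14 lower, and for the partner pairs 10 to 11 without overlap. Over 21 settings, 8 of the 9 genes that fell were called lower in every one; Timm10 missed it in limma on log2(FPKM + 1) without a filter (adjusted p = 0.0546). Of the genes that rose, Tomm7 was called higher in every setting and 5 others in all but the one that held ribosomal protein genes equal. Median-ratio factors gave 20 import genes higher, upper-quartile factors 21, protein-coding genes only 20 and a mean of at least 5 CPM 19, each with 9 lower. In that order, 4867 of 13290, 5006 of 13290, 4023 of 11470 and 3673 of 9841 tested genes were higher. Lower were 5080, 4895, 4762 and 4359 of these. Tomm6, Tomm20l and Timm8a2 had too few counts to test, at 15, 4 and 0, and the reason was not tested. The treated values of Grpel2 rest on 33 to 74 counts.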

Other observations

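Tomm6 encodes a small subunit of the outer membrane pore, and its sister subunits Tomm5 and Tomm7 were among the most abundant import genes per kb. In the deposited counts Tomm6 (chr17:47686646-47688386, −, GRCm38) had 0, 5 and 6 counts in control and 0, 4 and 0 counts in treated libraries. It overlaps Gm21981 on the same strand by 1648 bases, which had 0 counts, Tomm6os, with 12 counts over all libraries, and Usp49, with 816. The rule for reads shared by overlapping genes is unknown here, so no level is read from these counts.

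Several tested import genes share bases with a gene on the other strand. Grpel1 overlaps Tada2b by 411 bases, and that gene went from 943 to 1033 counts in control to 53 to 87 in treated libraries. Pmpca overlaps Inpp5e by 874 bases, with 1519 counts against 15137 for Pmpca. Tomm34 overlaps Stk4 by 848 bases, with 5289 counts for Stk4. Glis2, which overlaps Pam16, had 1253 to 1445 counts in control and 193 to 269 in treated libraries, opposite in direction to Pam16. Without strand, reads from such partners cannot be told apart.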
